A study of Xenopus tropicalis with 26 samples.

Results

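The features described here stayed near 0 in 3′ end sequencing of Xenopus tropicalis (western clawed frog) embryos from cleavage to neurula. All were present in it at the tailbud stage. They are 80 of the 27836 features in the count table, or 0.287%. They were chosen on libraries of whole transcriptome target sequencing (WTTS), in which RNA is fragmented and the polyadenylated pieces, which hold the 3′ ends of transcripts, are kept. Counts were scaled to CPM, the count per 1e6 counts of the library, and averaged over the 4 libraries of stages 6 and 8 and over the 2 families at each of stages 11, 15 and 28. A feature was kept when the 3 earlier means were each at most 1 CPM and the mean of stage 28 was at least 10 CPM. Stage differences in these 10 embryo WTTS libraries are therefore part of the choice and are given as a description, without a test.

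By the Nieuwkoop and Faber series of Xenopus, embryos are cleaving at stage 6, are blastulae at stage 8, gastrulate at stage 11, form the neural plate and folds at stage 15 and have a tailbud at stage 28. Cleavage runs on RNA that the mother left in the egg, and the embryo's own genome becomes broadly active at the blastula. Gastrulation then sorts the germ layers and neurulation forms the neural tube. By tailbud the somites, heart, blood, kidney and sense organs are forming, and many cell types begin to make the products of their mature state. The identifiers, which have the XLOC form, are not paired with gene names in the table, and the reference gene table at hand matched 0 of the 80. The features are thus described by identifier, position and level, and nothing is said of what they encode.

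Embryo groups were pools of whole embryos of family 1 and family 2 at each stage, so fewer cells of a type and less RNA per cell cannot be told apart. The same pools of stages 6, 8 and 11 were also sequenced as RNA-seq. Adult groups were 7 WTTS trials and 1 RNA-seq library of a pool of whole-body RNA from 3 male and 3 female frogs, and 2 technical repeats of WTTS from 1 adult female. No treatment or mutation is given in the labels for any group. WTTS embryo libraries held 1536128 to 6276132 counts, embryo RNA-seq libraries 110710673 to 131001449, adult WTTS libraries 8364595 to 42424000 and the adult RNA-seq library 73522777. A floor of 3 counts equalled 0.478 to 1.95 CPM in embryo WTTS and 0.0229 to 0.0271 CPM in embryo RNA-seq, so RNA-seq sees far lower levels. In trials 2, 3 and 4 of the adult pool a single feature took 39.1%, 33.9% and 31.5% of the counts.

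At stage 28 the 80 features ranged from 10.1 to 363 CPM as means of the families, with a median of 18.8 CPM. Together they took 2311 CPM in family 1 and 3138 CPM in family 2. In the 8 earlier WTTS libraries their sum lay between 18.8 and 40.8 CPM. A few features held much of the tailbud sum, and the 5 highest of them lie on one scaffold.

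The highest feature was XLOC_027199, on scaffold_9 from 59467542 to 59469301, minus strand, spanning 1760 bp. It had 246 CPM in family 1 and 480.5 CPM in family 2 at stage 28. It had 2 counts in the 8 earlier WTTS libraries together and none at stage 15. Against the floor of 3 counts per library, the stage 28 mean was at least 309-fold higher than at stage 15. The next was XLOC_027200, from 59480622 to 59482484 on the same strand, with 124 and 397 CPM in the families. It kept low counts before tailbud, 17 in the 8 earlier libraries, of which 2 were at stage 15. Both features were thus near 0 before tailbud, and both were higher in family 2, also with the TMM scaling described with the families.

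XLOC_026225, on scaffold_9 from 74073028 to 74076960, plus strand, had 232 CPM in family 1 and 186 CPM in family 2. XLOC_026402, also on the plus strand of scaffold_9, from 86220462 to 86228260, had 116 and 111 CPM, with 1 count in all earlier WTTS libraries. By library total the families lay closer together for these features than for the leading pair. XLOC_027207, on scaffold_9 from 59823075 to 59825301, minus strand, had 71.3 and 143 CPM.

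Outside scaffold_9 the highest level was that of XLOC_018853, on scaffold_6 from 25797582 to 25802672, minus strand, with 70.5 CPM in family 1 and 81.6 CPM in family 2. XLOC_004329, on scaffold_10 from 19473441 to 19481342, minus strand, had 61.1 and 63.9 CPM, and its span overlaps that of an opposite-strand feature. XLOC_003319, on scaffold_1 from 191090272 to 191093960, minus strand, had 70.6 and 43.5 CPM. All 3 had 0 counts in both libraries of stage 15, and their tailbud means exceeded the stage 15 floor by at least 64.6-fold, 53.1-fold and 48.5-fold.

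**Figure D1:**
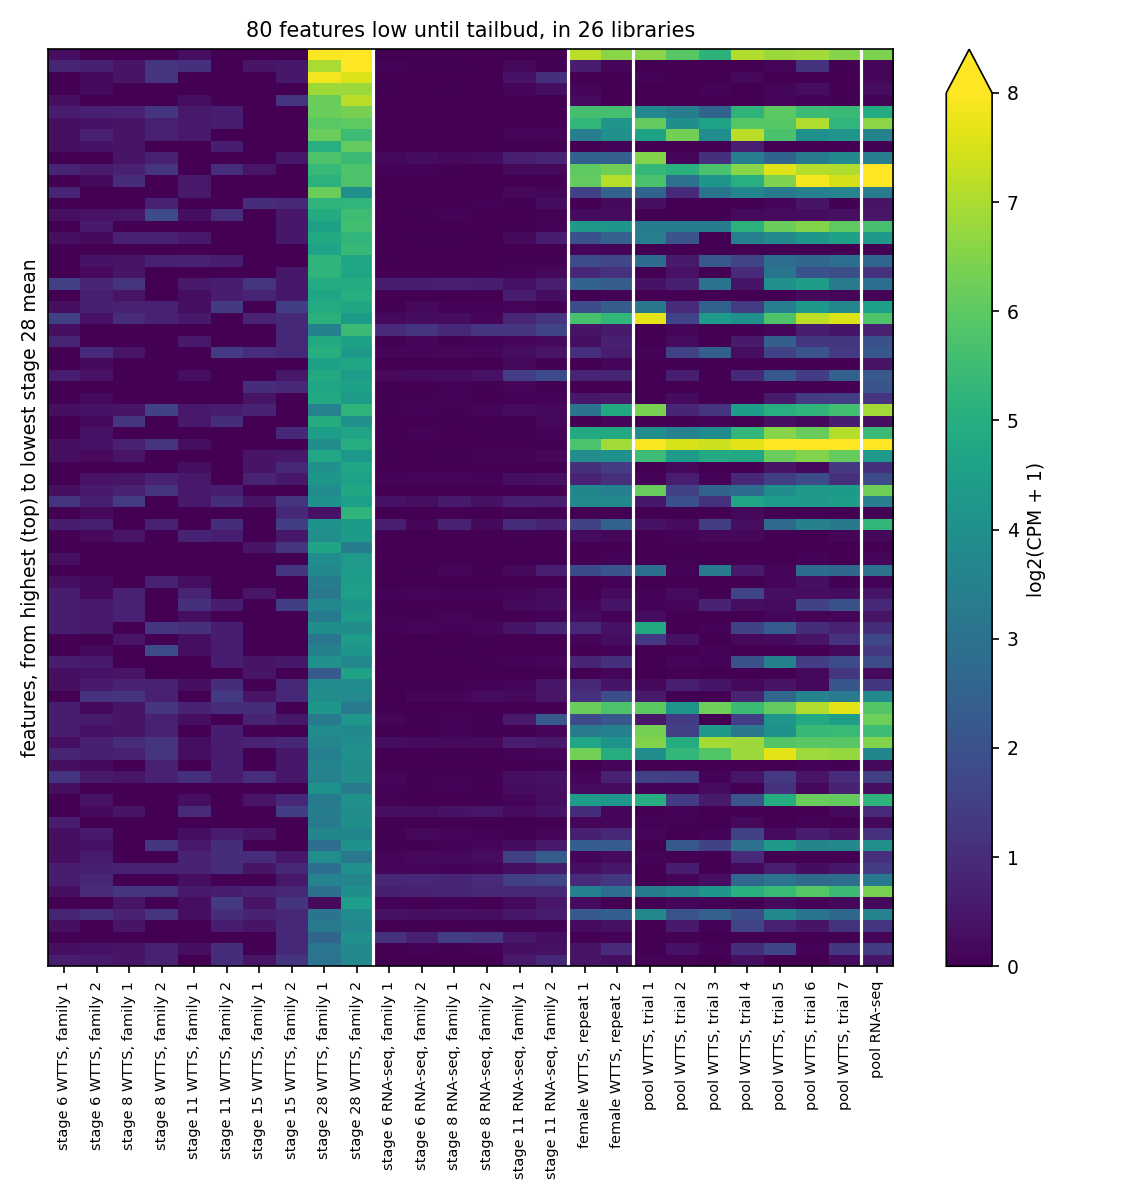
Level of the 80 features (rows, ordered by stage 28 mean) in the 26 libraries (columns), as log2(CPM + 1) on a colour scale that is saturated above 8. The bright pair of columns is stage 28, with 2311 and 3138 CPM in sum; the stripes at the right show that only some of the features were also high in adults.

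Few of the features were at exactly 0 before tailbud. XLOC_027201, on scaffold_9 from 59494095 to 59495297, minus strand, was the single member with no count in any of the 8 earlier WTTS libraries, against 19% of all features. It had 23.8 and 40.01 CPM at stage 28, and its mean was at least 28.8-fold above the floor of the earlier libraries. No count at stage 15 was found for 24 of the 80, beside 31.2% of all features. The median of the members was 0.309 CPM over stages 6 and 8, 0.263 at stage 11 and 0.281 at stage 15. These values are below the floor of every embryo WTTS library, so no order between the earlier stages can be read from them.

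The limits of the rule fell within a continuous range. The members nearest above 10 CPM were XLOC_016035, XLOC_024803 and XLOC_017015, with means of 10.1, 10.2 and 10.2 CPM. The features nearest below, XLOC_002886, XLOC_005738 and XLOC_005312, had 9.97, 9.84 and 9.74 CPM. An upper limit of 0.5 CPM before tailbud left 35 features and one of 2 CPM gave 191.

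The families were compared within stage 28, where each is 1 library, so intervals cover counting error only and no test can be made. At least 10 CPM in both families was reached by 57 members, beside 27.6% of all features, in family 2 alone by 19, beside 5.39%, and in family 1 alone by 4, beside 1.36%. The rule's mean of at least 10 CPM puts every member at that level in at least 1 family. Shares above those of all features thus follow from the choice. By library total 55 of the 80 were higher in family 2, with a median ratio of family 2 to family 1 of 1.34. This direction depends on the scaling: with TMM factors, which correct for composition, 34 of 80 were higher in family 2 and the median ratio was 0.905. Over the 17844 features with a count in both libraries the median ratio was 1.39 by library total and 0.941 with TMM. The largest single feature took 9.18% of the counts of family 1 and 2.97% of those of family 2. A ratio beyond 2-fold either way was found for 22 features, 27.5% of the members, beside 30.9% of the features with a count in both libraries and 26.3% of all features.

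A small number of members rested on one family. XLOC_005406, on scaffold_1623 from 1310 to 7665, plus strand, had 0.319 CPM in family 1, from 2 counts (exact 95% Poisson interval 0.0386 to 1.15 CPM), and 36.9 CPM in family 2 (29.8 to 45.1). XLOC_002025, on scaffold_1 from 29912804 to 29926723, minus strand, had 0.159 CPM in family 1, from 1 count (0.00404 to 0.888 CPM), and 21.2 CPM in family 2 (15.9 to 27.6). The ratio of family 2 to family 1 was 133 for XLOC_002025, with a counting interval from 22.9 to 5344, and 116 for XLOC_005406, with an interval from 31.1 to 969. These features passed the rule through family 2 only.

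The other unequal members differed less. XLOC_018586, on scaffold_6 from 131931567 to 131935431, plus strand, had 3.67 CPM in family 1 and 23.5 CPM in family 2. XLOC_012298, on scaffold_3b from 2108635 to 2112385, minus strand, had 10.5 and 43.1 CPM. XLOC_022158, on scaffold_7 from 104894802 to 104897375, minus strand, went the other way, with 70.8 CPM in family 1 and 15.3 CPM in family 2, a ratio of 0.216 (counting interval 0.152 to 0.300). Applied to family 1 alone the rule gave 95 features, of which 49 were among the 80, and applied to family 2 alone it gave 74, of which 54 were among them.

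**Figure D2:**
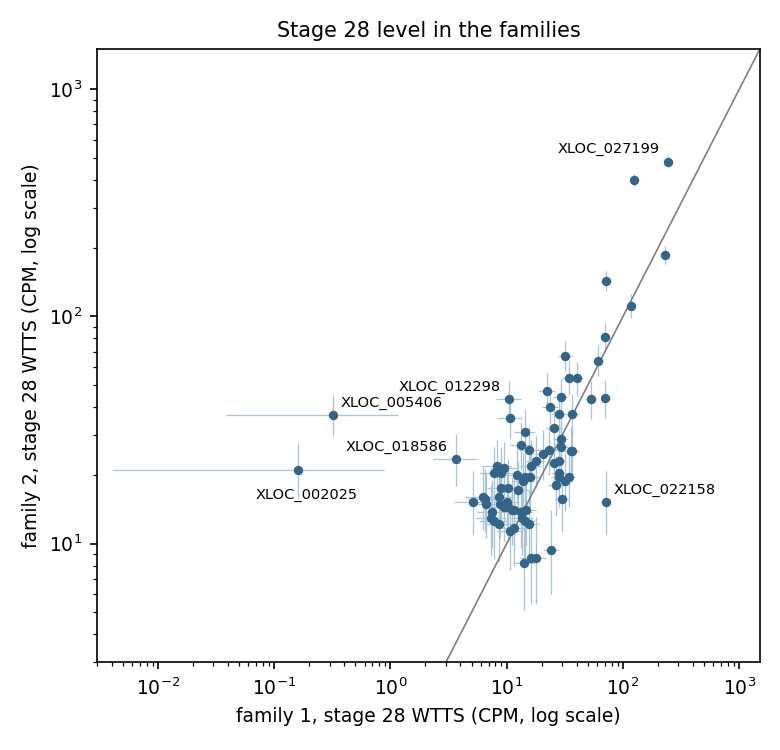
Stage 28 level of the 80 features in family 1 (x) and family 2 (y), in CPM on log scales, with exact 95% Poisson intervals of the counts. The grey line marks equal CPM; XLOC_005406 and XLOC_002025 sit far to the left of it at 0.319 and 0.159 CPM in family 1.

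RNA-seq of stages 6, 8 and 11 was not used by the rule, but it came from the same pools. The rule held the WTTS means of these pools at or below 1 CPM, so low shares in RNA-seq partly follow from the choice. RNA-seq was used to ask whether traces of these transcripts were present earlier. They were scarce at cleavage and blastula and more common at the gastrula. A mean of at least 0.1 CPM was reached by 15 of 80 members at stage 6, beside 58% of all features, by 16 at stage 8, beside 58.6%, and by 39 at stage 11, beside 69.4%. A mean of at least 1 CPM was reached by 1, 2 and 6 members, beside 43.3%, 43.9% and 50.8% of all features. The summed level was 7.90 and 7.42 CPM in families 1 and 2 at stage 6, 9.02 and 8.87 CPM at stage 8, and 19.1 and 31.9 CPM at stage 11. In WTTS of the same pools the sum was 25.7 and 26.0 CPM at stage 6, 27.8 and 37.1 CPM at stage 8, and 22.5 and 31.5 CPM at stage 11. Before the gastrula WTTS thus held a median of 3.38 times the RNA-seq sum, though CPM of the 2 methods may not be comparable. In the 4 libraries made by RNA-seq at stages 6 and 8, 14 members had no count, beside 19.1% of all features. No count in all 6 was found for 3, XLOC_027199, XLOC_027201 and XLOC_027210, beside 12.7% of all features.

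**Figure D3:**
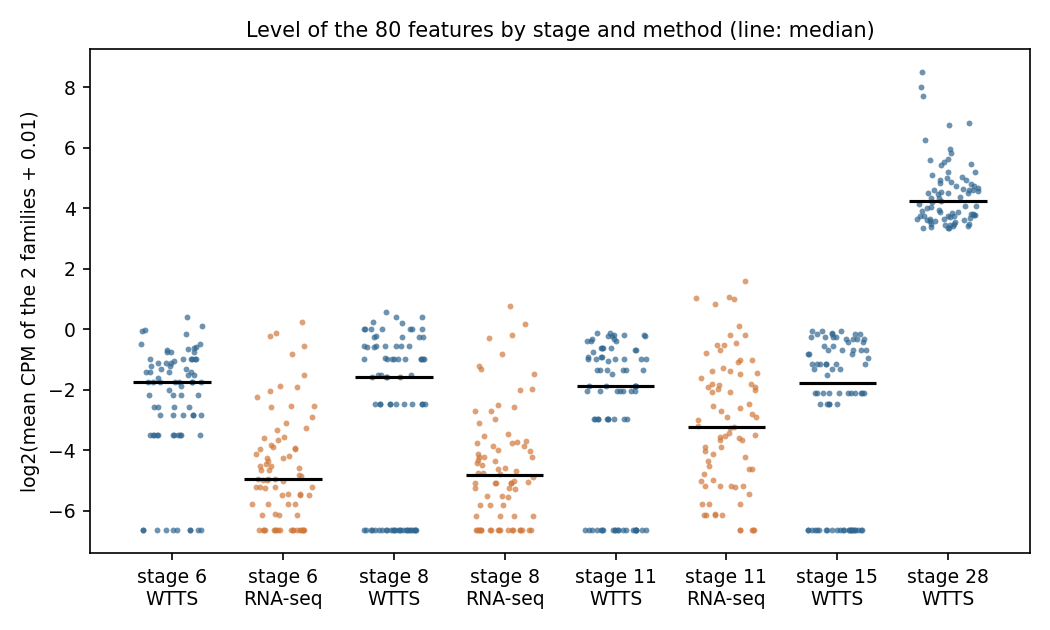
Mean level of each of the 80 features over the 2 families by stage and method, as log2(CPM + 0.01), with black lines at the medians. The lowest row of points holds features at 0; RNA-seq medians rise from stage 8 to stage 11 and stay far below the stage 28 WTTS median, which is 18.8 CPM on the linear scale.

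In the RNA-seq test of stage 11 against the mean of stages 6 and 8, 26 members were called higher and 1 lower (edgeR quasi-likelihood test, Benjamini-Hochberg adjusted p below 0.05). Of the 19413 features tested, 34.2% were called higher and 29.7% lower. The 26 are 32.5% of the 80 members, tested or not, and the features called higher are 23.8% of all 27836. These shares were not tested against each other. Only 39 members passed the filter on low counts. A member silent or below the filter's limit at stages 6 and 8 could pass only through its level at stage 11. Most of the 26 had very low counts at stages 6 and 8 and entered in this way. The number called higher among the 39 tested and the median log2 change thus largely follow from the filter. The 26 reached 0.126 to 3.05 CPM at stage 11. In all 26, both families at stage 11 lay above all 4 earlier libraries. The calls were made on these same libraries, so this describes the called members and adds no support. The share of all features with such a separation was not counted. Without family 2 of stage 11, which leaves 1 library at that stage, the median log2 change over the 42 members tested was 1.73. With all 6 libraries it was 1.96 over the 39 tested.

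The largest early rise by level was that of XLOC_018748, on scaffold_6 from 9022930 to 9039890, minus strand. Its RNA-seq level was 0.106 and 0.145 CPM at stage 6, 0.122 and 0.215 at stage 8, and 1.96 and 4.14 at stage 11, in families 1 and 2. The log2 change was 4.23 (SE 0.44, edgeR adjusted p = 0.000309). In WTTS it then had 14.0 and 8.24 CPM at stage 28. The groups did not overlap, and the RNA-seq level at the gastrula was far above the 2 earlier stages.

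XLOC_010537, on scaffold_3 from 10748002 to 10757274, minus strand, began at 0.155 and 0.172 CPM at stage 6 and 0.176 and 0.297 at stage 8 and reached 1.73 and 2.46 at stage 11. This is a log2 change of 3.26 (SE 0.36, edgeR adjusted p = 0.000383). XLOC_010110, on scaffold_3 from 78493648 to 78522302, plus strand, had 0.763 to 0.957 CPM in the 4 earlier libraries and 1.86 and 2.16 CPM at stage 11, and the log2 change was 1.08 (SE 0.29, edgeR adjusted p = 0.0158). Both rose in each family from levels that RNA-seq saw already at cleavage, and the level of the second was the higher there. The call of XLOC_010110 was lost without family 2 of stage 11 and without family 1 of stage 6 or of stage 8, where the adjusted p was 0.0603, 0.0567 and 0.0688.

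XLOC_014986, on scaffold_42 from 94134 to 138676, plus strand, had 0.0271 to 0.0818 CPM before the gastrula and 0.451 CPM in family 1 and 3.67 CPM in family 2 at stage 11. Its level at stage 11 thus rested mainly on family 2. XLOC_026225, among the highest at stage 28, had no RNA-seq count at stages 6 and 8 and 0.316 and 1.12 CPM at stage 11. Its stage 11 mean was at least 28.9-fold above the floor of 3 counts per library. XLOC_016035 also had 0 counts before the gastrula and 0.460 and 0.909 CPM in the gastrula libraries, which is at least 27.6-fold above that floor. XLOC_014986, XLOC_026225 and XLOC_016035 entered the test only through stage 11, so no p is given for them. The rule itself held the WTTS means of these features at or below 1 CPM at both stage 11 and stage 15.

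A few members had a mean of at least 0.5 CPM in RNA-seq already at stage 6. XLOC_017015, on scaffold_5 from 112299418 to 112303290, minus strand, was the member that fell. It had 1.22 and 0.614 CPM at stage 6, 1.82 and 1.54 at stage 8, and 0.415 and 0.225 at stage 11, a log2 change of -2.09 (SE 0.47, edgeR adjusted p = 0.00800). WTTS held 2 counts for it in the 8 libraries before tailbud, and 5.10 and 15.3 CPM at stage 28. XLOC_012298 had 0.893 to 1.35 CPM in RNA-seq before the gastrula and 1.34 and 2.18 CPM at stage 11, and its log2 change was 0.47 (SE 0.37, edgeR adjusted p = 0.300). WTTS held 3 counts for it before tailbud. The pools were the same, so for these features the methods gave unlike levels before tailbud.

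XLOC_011307, on scaffold_3 from 112207138 to 112235983, minus strand, stayed between 0.622 and 0.900 CPM in all 6 RNA-seq libraries (log2 change 0.08, SE 0.31, edgeR adjusted p = 0.835). XLOC_000649, on scaffold_1 from 74163876 to 74198786, plus strand, had 0.545 to 0.580 CPM before the gastrula and 0.316 and 0.609 at stage 11 (log2 change -0.43, SE 0.39, edgeR adjusted p = 0.361). For both, the groups of libraries were not separated by this test.

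Family 2 held more of these transcripts than family 1 in RNA-seq of the gastrula, and not clearly so before. Among members with a count in both libraries, 45 of 65 were higher in family 2 at stage 11, with a median ratio of 1.42. Over the 22461 such features in the table the median was 1.06 and 55.1% were higher. With TMM factors it was again 45 of 65, with a median of 1.37, beside 51.9% of features and a median of 1.02. At stage 6 it was 26 of 51 with a median ratio of 1.00, and at stage 8 it was 25 of 53 with a median ratio of 0.946, by library total. Features that met the same limits before the neurula and had at least 10 CPM from stage 15 on, 34 in number, had a ratio of 4.05 at stage 11. The 93 features with at least 10 CPM from stage 11 on had 1.61. Each family is 1 library per stage, so these ratios were not tested.

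In adults the members ranged from near 0 to far above their tailbud level. At least 1 CPM was reached by 35 of 80 in the mean of the female repeats, beside 49.7% of all features. It was reached by 36 in the median of the 7 trials of the pool, beside 45.6%, and by 52 in the RNA-seq library of the pool, beside 59.4%. At 10 CPM the numbers were 18, 20 and 26 members, beside 30.9%, 21.9% and 37.3% of all features. Every member had a count in at least 1 adult library, while 8.67% of all features had none. Below 1 CPM in all 10 adult libraries stayed 22 members, 27.5% of them, beside 35.3% of all features. At least 10 CPM in all 10 were 9 members, or 11.25%, beside 5.89%.

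Members at high level in all 10 adult libraries included XLOC_027199, the highest at tailbud. It had 144 and 95.4 CPM in the female repeats, 35.3 to 134 CPM in the trials with a median of 96.4, and 85.2 CPM in adult RNA-seq. XLOC_001419, on scaffold_1 from 169983723 to 169990930, plus strand, was the highest of all members in adult RNA-seq. It had 14.3 and 31.0 CPM at stage 28, 52.4 and 117 CPM in the female repeats, 166 to 423 CPM in the trials with a median of 242, and 1274 CPM in adult RNA-seq. Its adult values thus lay above both tailbud values in every library.

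XLOC_026613, on scaffold_9 from 94845421 to 94881484, plus strand, had 40.2 and 53.3 CPM at stage 28, 63.6 and 76.0 CPM in the female, 33.8 to 195 CPM in the trials and 442 CPM in adult RNA-seq. XLOC_006024, on scaffold_2 from 20991405 to 20998731, plus strand, had 18.0 and 8.63 CPM at stage 28, 70.4 and 53.9 CPM in the female, 16.5 to 204 CPM in the trials and 57.0 CPM in adult RNA-seq. XLOC_022873, on scaffold_8 from 9772897 to 9784040, plus strand, had 34.6 and 53.7 CPM at stage 28, 65.9 and 137 CPM in the female, 6.93 to 235 CPM in the trials and 428 CPM in adult RNA-seq. Its span too overlaps an opposite-strand feature. These features were higher in the female and in adult RNA-seq than at tailbud, while for each of them the trials spanned a wide range and the lowest trial lay below the higher of the tailbud values.

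The 22 members below 1 CPM in every adult library held 30.9% of the members' summed stage 28 level. XLOC_026225 had 0 counts in both female repeats, at most 0.120 CPM in the trials and 0.109 CPM in adult RNA-seq, against 232 and 186 CPM at tailbud. XLOC_026402 had 0.0877 CPM and 0 counts in the female, at most 0.201 CPM in the trials and 0.204 CPM in adult RNA-seq. These 22 had shorter spans in the genome, with a median span of 4030 bp, against 7902 bp for the 9 that were high in all adult libraries and 11144 bp for the other 49. The span includes introns, and these differences were not tested. The level of the female mean was under 0.1 times the stage 28 mean for 50 members, beside 11.4% of all features, and above it for 9, beside 37.1%. Adult RNA-seq exceeded the stage 28 mean for 18, beside 56.7%. That sets RNA-seq against WTTS, and the methods gave unlike levels for the same adult pool. XLOC_001419 had a trial median of 242 CPM and 1274 CPM in RNA-seq, while XLOC_000977 had 105 and 11.8 CPM. A high tailbud level chose these features and not the others, so these shares are a description. Across the 80 members the stage 28 mean and adult RNA-seq had a Spearman correlation of 0.0578. The female mean and adult RNA-seq had one of 0.913. Members share libraries and are not independent, and these values are descriptions.

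**Figure D4:**
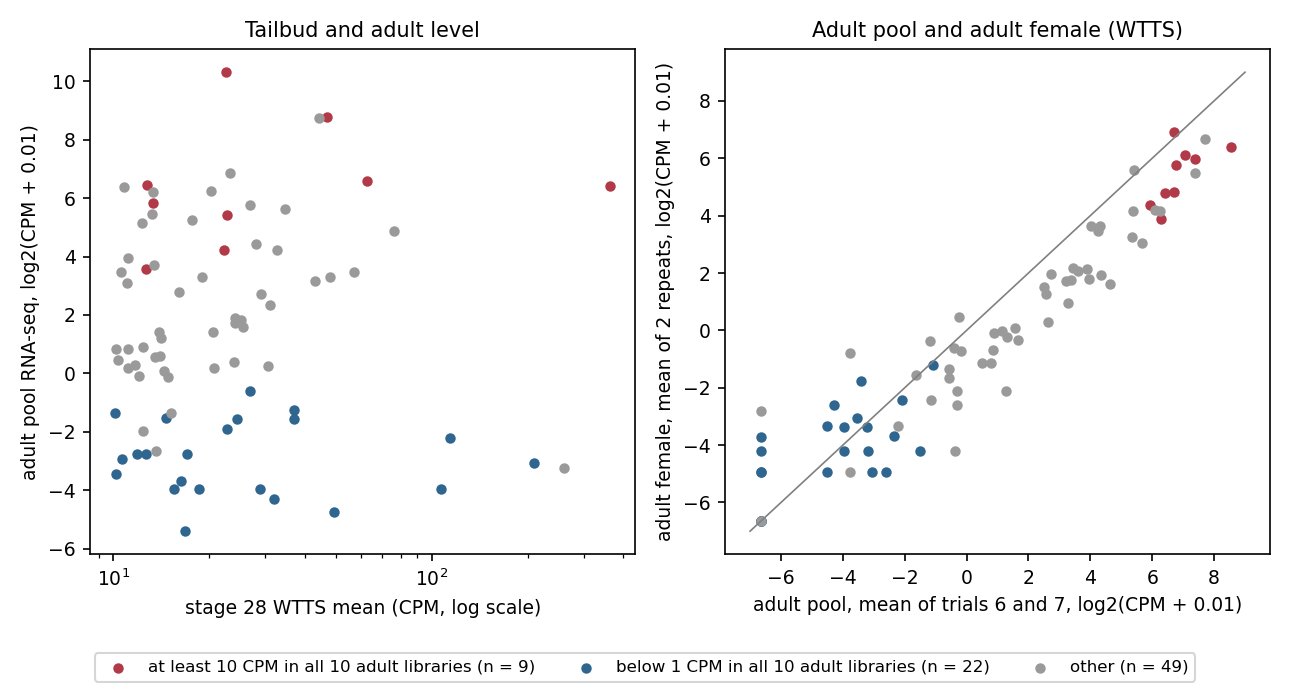
Left, adult pool RNA-seq as log2(CPM + 0.01) against the stage 28 WTTS mean in CPM on a log scale; right, the mean of the female repeats against the mean of trials 6 and 7 of the pool, both as log2(CPM + 0.01), with a grey line at equality. Colours mark the 9 members with at least 10 CPM and the 22 with less than 1 CPM in all 10 adult libraries; most of the features with high adult levels lie below the line.

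The adult female was set against the mixed-sex pool in WTTS. With all 7 trials no feature of 16455 passed the threshold in either direction, 0% called, in edgeR's quasi-likelihood test, with 863 at an unadjusted p below 0.05. Of the 50 members tested, 49 had a lower fitted level in the female and 11 had an unadjusted p below 0.05, but the smallest adjusted p was 0.814. The median fitted log2 change was -2.01 over these members and -0.33 over all features tested. The share of all features with a lower fitted level was not counted, so the 49 are a description. DESeq2 called 4 members lower and none higher, beside 2.46% of features lower, and limma-voom called none of the members. The trials used the protocol under development and differed widely among themselves. With trials 5, 6 and 7 edgeR called 5 members lower, beside 0.817% of features. With trials 6 and 7 alone edgeR called 17 of 47 members lower and 0 higher in the female, beside 5.83% of features lower. Their log2 changes ran from -3.29 to -1.39. The p-values measure the spread of technical repeats of 1 frog and of 1 pool, not of animals. The rule held the members, unlike all features, to low levels at cleavage and blastula. How far this choice set the shares called lower was not tested.

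Taking each library's value, both female repeats lay below trials 6 and 7 and below adult RNA-seq for 40 of the 80 members, beside 15.5% of all features. Against all 7 trials it was 3 of the 80, beside 0.478%. A feature with no count in a trial or RNA-seq library used in the comparison cannot meet these conditions, which lowers such shares. The rule also held the members to low levels at cleavage and blastula, a limit that all features do not share. The members and all features are thus not like for like, and these shares are a description. XLOC_001419, with 52.4 and 117 CPM in the female, had 403 and 339 CPM in trials 6 and 7, a log2 change of -2.14 in that alternative (SE 0.39, edgeR adjusted p = 0.00815). XLOC_014986, with 2.63 and 3.54 CPM in the female, had 28.7 and 21.4 CPM in trials 6 and 7 and 73.8 CPM in adult RNA-seq, a log2 change of -2.99 (SE 0.39, edgeR adjusted p = 0.00165). XLOC_027199 did not share this pattern, with 144 and 95.4 CPM in the female and 118 and 91.7 CPM in the trials. The sex, the individual and the protocol cannot be told apart here.

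In the genome the members lay on 23 scaffolds. Scaffold_9 held 14 of the 80, or 17.5%, against 7.62% of all features. Within 50 kb of another member lay 10 of them, as a group of 4 and as 3 pairs. The pairs were XLOC_002244 with XLOC_000472 on scaffold_1, XLOC_003910 with XLOC_003911 on scaffold_10, and XLOC_007388 with XLOC_006109 on scaffold_2. A feature on the other strand overlapped 8 members, or 10%, against 19.1% of all features, and reads of such partners can be told apart only if strand was used in counting. The median span was 8106 bp against 10820 bp over all features, and 10 members spanned over 30 kb, or 12.5%, against 23.3%.

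The group of 4 lies on scaffold_9 within 40631 bp and holds XLOC_027199, XLOC_027200, XLOC_027201 and XLOC_027202, all on the minus strand and with spans of 1173 to 1863 bp. XLOC_027202, from 59507000 to 59508172, had 31.7 CPM in family 1 and 67.1 CPM in family 2 at stage 28. All 4 were higher in family 2 than in family 1, with ratios of 1.95, 3.20, 1.68 and 2.11 by library total, beside a median of 1.39 over all features with a count in both. With TMM the ratios were 1.32, 2.16, 1.14 and 1.43, beside 0.941. The group differed within itself in adults. XLOC_027199 stayed at 85.2 CPM in adult RNA-seq, while XLOC_027200, XLOC_027201 and XLOC_027202 had 0.0952, 0.0408 and 0.0272 CPM.

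The next features on the strand do not meet the rule and show other patterns. XLOC_027203, from 59530642 to 59538016, had 6.54 CPM at stage 6, 4.03 at stage 15 and 240 and 517 CPM in the families at stage 28, against 25.2 CPM in the female. XLOC_027204, from 59572670 to 59573939 and 1270 bp in span, had 0 counts in both libraries of stage 28 and 3 counts in the 10 embryo WTTS libraries. In adults it had 264 and 390.4 CPM in the female repeats, 98.7 to 653 CPM in the trials and 332 CPM in RNA-seq. The feature was thus near 0 in embryos and high in adults, where its neighbours XLOC_027200 to XLOC_027202 were the reverse. XLOC_027207 had at most 0.175 CPM in the female repeats and 0.0544 CPM in adult RNA-seq, and lies 355.5 kb from the start of XLOC_027199. How reads that match several of these short neighbours were counted is not stated, so their levels are uncertain where their sequences are alike. XLOC_027203 and XLOC_027204 were chosen after their values were seen.

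**Figure D5:**
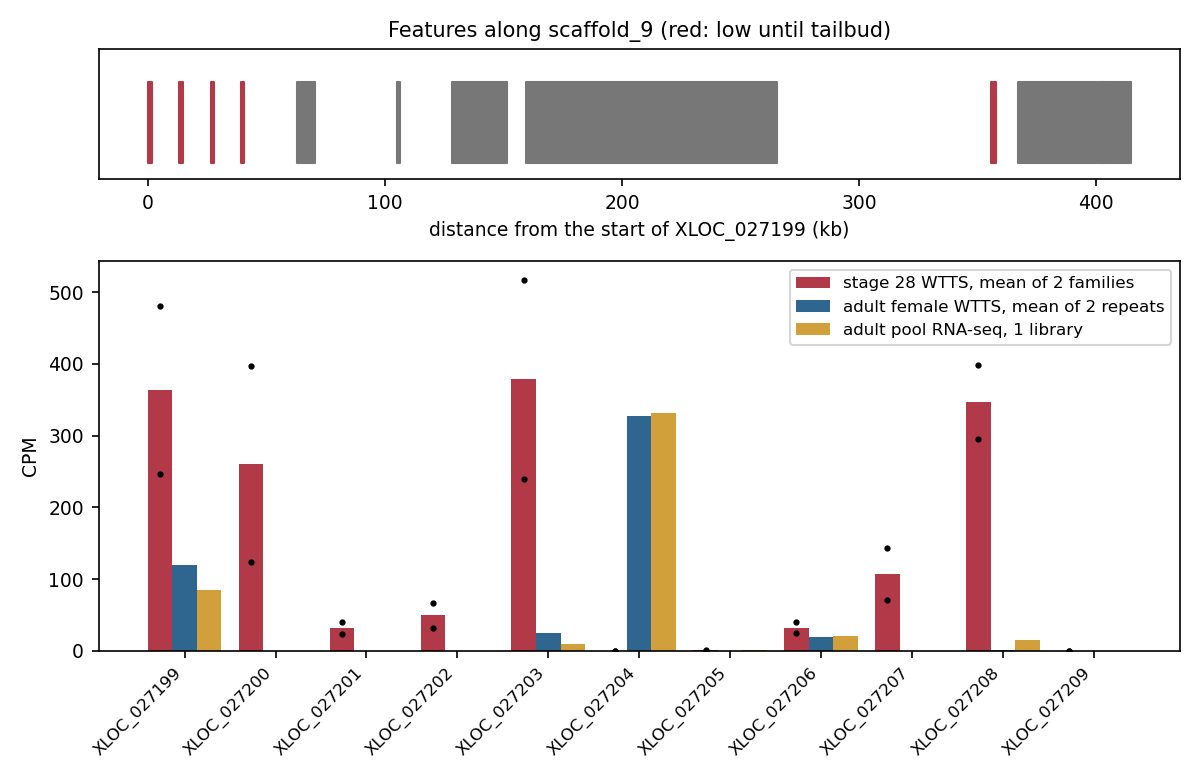
Top, features along scaffold_9 as distance in kb from the start of XLOC_027199, with members in red and the others in grey. Bottom, level of each feature in CPM at stage 28 (bars are means of the 2 families, dots the families), in the adult female (mean of 2 repeats) and in adult RNA-seq (1 library); XLOC_027204 has 0 at stage 28 and 332 CPM in adult RNA-seq.

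Set beside features that came on earlier, the 80 members had lower median levels at tailbud and in RNA-seq of the gastrula. The median stage 28 level was 18.8 CPM, against 56.2 CPM in the 34 features on from the neurula and 43.02 CPM in the 93 on from the gastrula. The median RNA-seq level at stage 11 was 0.0972 CPM, against 0.627 and 59.9 CPM. Median adult RNA-seq was 2.09 CPM against 2.74 and 3.59 CPM. A level of at least 10 CPM in all 10 adult libraries was reached by 9 of the 80 (11.25%), 2 of the 34 (5.88%) and 4 of the 93 (4.30%). All these sets were chosen on the same libraries, and the differences between them were not tested.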

How the data were processed

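The authors deposited 1 table of raw counts for 26 libraries, as whole numbers that were not normalised. Per the labels' protocols, RNA was extracted with Trizol, and for WTTS it was fragmented, the polyadenylated pieces were kept, and cDNA was made, sized and amplified, with Illumina and Ion Torrent library protocols. The aligner, counter, build, annotation and any use of strand were not given in the sources used here. Reads that match several features could be split or dropped by the counting program.

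The members, comparison sets and lists were chosen with earlier results of these data known. CPM is the count divided by the column sum. Tests used edgeR 4.0.16 in R 4.3.3 (TMM, filterByExpr, quasi-likelihood F-test, adjustment over all features tested) on the 6 embryo RNA-seq libraries with stage as the factor, and on the 9 adult WTTS libraries. The SE was taken as the size of the log2 change over the root of F. Both fits were tested on simulated counts with a fixed spread and no differences among trials. This does not test them under the spread seen among the real trials. Alternatives used DESeq2 1.42.0 and limma 3.58.1. Python 3.11.15 (numpy 2.4.6, scipy 1.17.1, pandas 2.3.3) served for the rest.

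Named members were those highest at stage 28, in the female or in RNA-seq, called in a test with at least 1 CPM, most unequal between families, in the largest group of neighbours or nearest the limit of 10 CPM. None had 0 counts in all 10 adult libraries, another part of the rule. The labels name the same 2 families at every stage, so samples are paired by family, and deviations correlated with 0.266 to 0.554 over 9716 features in RNA-seq. Chi-square tests of replicate pairs gave at least 17.9 per degree of freedom, so none differed by sampling noise alone. The embryo pools of the families are biological replicates by the series' design text, while adult trials and repeats are technical, so adult p-values measure technical spread. Intervals and floors cover counting error only, since PCR copies are not independent molecules.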

Additional observations from a re-analysis of the deposited data

Results flagged for a closer look

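Some named features had 1 trial of the adult pool far from the other 6, by the gap to its neighbour relative to the range of the 7 values. Of 30 items examined 8 met this condition. Chance gives about 1 in 20 for normally distributed values. That rate does not hold for counts near 0, where 1 count can set a trial apart. Whether 8 of 30 exceeds chance can therefore not be said. XLOC_021215, on scaffold_7, had 91.0 CPM in trial 1 against 12.9 CPM in the next trial. The others were at low level. XLOC_027200 had 1.27 CPM and XLOC_026402 had 0.201 CPM in trial 6, XLOC_027202 had 0.598 CPM, XLOC_018748 had 0.956 CPM and XLOC_005406 had 0.120 CPM in trial 4, XLOC_017015 had 0.0236 CPM in trial 2, and XLOC_018586 had 1.38 CPM in trial 7. XLOC_027202, XLOC_017015 and XLOC_005406 had 0 counts in the other 6 trials.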

How the results depend on the processing

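The number of features that meet the rule was 80 with TMM scaling too, of which 67 were the same, and 74 and 95 from a single family. It was 35 with an upper limit of 0.5 CPM, 191 with 2 CPM, 162 with a lower limit of 5 CPM and 39 with 20 CPM. The median log2 change of the members tested in RNA-seq ran from 1.73 to 2.38 when 1 library was left out. The lowest value was without the second family of the gastrula. With a replicate block for family, 28 members were called higher and 1 lower, beside 7041 and 6276 of 19413 features. The pairing changed the call of 0 of the 15 named members tested. DESeq2 called 18 members higher, beside 6050 of 19413 features. The fit with no filter on low counts called 30 higher, beside 7297 of 24309 features. Without the members that overlap a feature on the other strand, an alternative added after seeing the data, 24 were called. Members with RNA-seq traces numbered 25, 5 and 1 at stage 6, 26, 5 and 2 at stage 8 for means of at least 0.05, 0.5 and 1 CPM, and 13 and 6 at stage 11 for 0.5 and 1 CPM. At 10 CPM, 18, 20 and 26 members were detected in the female, the trials and adult RNA-seq.

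The adult test depended on the trials used. Members lower in the female numbered 4 with DESeq2, 5 with trials 5 to 7 and 17 with trials 6 and 7. Over all features DESeq2 called 4 higher and 405 lower, trials 5 to 7 gave 7 and 130, and trials 6 and 7 gave 423 and 925. With no filter 1 feature was lower and with limma-voom 4. Leaving out 1 library gave 0 to 13 lower features and 0 higher, and 13 was without trial 1. The cause was not tested.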
